A study of Homo sapiens with 30 samples.

Results

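The GADD45 family was examined here as its 3 human genes, GADD45A, GADD45B and GADD45G, taken by name from 39359 genes with a count. All 3 were found in the count table, and 2 of them, GADD45A and GADD45B, passed the filter on low counts that left 20875 genes for testing. RNA-seq was carried out on H1299 cells, a lung carcinoma line that lacks p53, after transient transfection with a vector expressing GFP and, in all groups but the control, p53. The control vector pGFP expresses GFP alone. The other vectors carried wild type p53, RW mutant p53 (a missense mutant altered at an arginine codon of the DNA-binding domain) or p53 O6-meG, in which a single O6-methylguanine lies on the template strand of that same codon. The group p53 TM (transcriptional mutagenesis) received the p53 O6-meG vector together with 10 µM O6-bzG, which inactivates AGT, the protein that repairs the lesion. No other group received O6-bzG, so an effect of the lesion with the inhibitor and an effect of the inhibitor alone cannot be told apart. Each of the 5 groups was sorted for GFP-positive cells at 6 h and at 24 h, with 3 replicates, which gives 30 libraries from 1 cell line. Both p53 and GFP were driven by tight tetracycline-responsive promoters on the vector, so the p53 in these cells comes from the vector. The study's methods call the replicates biological triplicates, the labels say no more of their origin, and p values measure the spread between these samples.

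The GADD45 proteins (growth arrest and DNA damage inducible) are small acidic proteins without known enzyme activity that act by binding others. They activate the kinase MAP3K4 upstream of p38 and JNK, bind PCNA and p21, inhibit the CDK1-cyclin B1 complex at the G2/M transition, and take part in active DNA demethylation with TDG. GADD45A is a classical direct target of p53, whereas GADD45B is best known as a gene induced by NF-κB, TGF-β and stress signals, and GADD45G as a gene induced by cytokines and silenced in many tumour lines.

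In hg38, GADD45A (ENSG00000116717.11) lies on chromosome 1 from 67685201 to 67688334, GADD45B (ENSG00000099860.8) on chromosome 19 from 2476122 to 2478259, and GADD45G (ENSG00000130222.10) on chromosome 9 from 89605012 to 89606555, all on the plus strand and each with 4 exons in its canonical transcript. None of them overlaps another annotated gene on either strand. The closest matches to the p53 response element consensus, a pair of abutting half-sites of 10 bases, are shown because the vectors differ in the p53 they express. They were sought from 1000 bases before the start of each gene to 3000 bases after it. The central 4 bases of both half-sites, printed in capitals, had to read CNNG with A or T at each N, and since the consensus reads the same on both strands, 1 strand was scanned. The sites are written 5′ to 3′ on the plus strand.
GADD45A, chr1:67686775-67686794: gaaCATGtctaagCATGctg
GADD45B, chr19:2478021-2478040: agaCTTGgttgaaCTTGgtt
The GADD45A match lies in intron 3, 1574 bases from the gene start, and meets 19 of 20 consensus positions, missing the last. The GADD45B match lies in exon 4 and meets 18 of 20 positions, missing positions 8 and 18 counted from its 5′ end. In GADD45G the window held no sequence with both central parts intact. Of the windows of the same length at 20033 protein-coding genes, 48 (0.24%) held a match with at most 1 mismatch, that of GADD45A included. These letters describe the windows and do not show binding.

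Counts on genes summed to 32302699 at the least and 71950532 at the most per library (median 44424643). Levels are given as CPM (counts scaled to the library size, after TMM). Of the markers of the line, KRT8 (111 to 181 CPM), KRT18 (273 to 720 CPM) and VIM (1940 to 3580 CPM) were abundant, whereas KRT19, EPCAM and CDH1 of epithelium and SFTPB and SFTPC of lung were below 0.4 CPM in every library. NKX2-1, a lung transcription factor, was low as well, with a median of 0.438 CPM and at most 1.2 CPM. The leukocyte gene PTPRC reached at most 0.0501 CPM, and PECAM1, ALB and COL1A1 at most 2 CPM. Replicate 2 of p53 O6-meG and replicate 2 of p53 TM, both from 6 h, have titles that contradict themselves: the leading words give one of these 2 groups and the bracketed words the other. The bracketed words, which the genotype field repeats, set the group used here. The leading words are also the names of their columns in the deposited counts. Both are called the conflicting libraries. In the library labelled p53 O6-meG, CDKN1A (p21, a target of p53) was at 50.0 CPM against 268 and 261 CPM in the other replicates, and in the library labelled p53 TM at 249 CPM against 65.7 and 57.7 CPM. Their values thus lie on the side of the other group. Comparisons at 6 h that rest on them are given as labelled, by the first part of the titles, and with both left out. All 30 libraries share the estimate of spread of each gene, so these libraries also bear on the tests at 24 h, given as labelled. Between p53 TM and wild type p53 at 24 h, 18.5% of genes passed as labelled and 22.4% by the first part of the titles. Between p53 TM and p53 O6-meG at 24 h these shares were 6.5% and 11.4%.

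GADD45G was close to undetected. In all 30 libraries together it had 8 counts, in 6 libraries, all at 24 h. Wild type p53 gave 1, 1 and 2 counts at 24 h, replicate 1 of pGFP and of p53 O6-meG gave 1 count each, and replicate 2 of p53 TM gave 2. The other 24 libraries had 0 counts. The limit allowed by 3 counts is between 0.0442 and 0.0881 CPM over all 30 libraries, covering counting error only. No difference in GADD45G between groups was detectable at this depth. The 2 expressed members, by contrast, had between 397 and 4777 counts (GADD45A) and between 536 and 1668 counts (GADD45B) in every library.

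GADD45A rose with wild type p53 at both times, and did not pass the test with RW mutant p53. At 6 h it was at 21.0, 19 and 22.0 CPM in the 3 pGFP replicates and at 68.1, 65.7 and 70.4 CPM in those of wild type p53. The groups do not overlap, and the wild type replicates lie close together. The rise was 3.29-fold (log2 fold change 1.72 ± 0.29, SE; adjusted p = 0.00056 by the edgeR quasi-likelihood test over all genes), in a comparison in which 8.75% of all genes tested passed the threshold of 0.05 and 7.64% were higher. At 24 h pGFP gave 10.6, 19.8 and 19.1 CPM and wild type p53 89.2, 74.7 and 82.1 CPM. Again no library of one group reached the other, although replicate 1 of pGFP was lower than its companions. The rise was 4.96-fold (log2 2.31 ± 0.29, adjusted p = 9.11e-07), where 34.9% of all genes passed and 20.3% were higher. In bulk RNA a change in the number of cells that express a gene and a change in RNA per cell cannot be told apart. The rise at 24 h was larger than that at 6 h by 0.59 ± 0.40 on the log2 scale, which did not pass the test of the difference itself (adjusted p = 0.503), in which 4.9% of genes did. Within wild type p53 the level at 24 h against 6 h differed by log2 0.27 ± 0.28 (adjusted p = 0.454, with 45% of genes passing), and in a fit of only those groups by 0.30 with adjusted p = 0.0127.

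RW mutant p53 gave 20.2, 18.7 and 23.8 CPM of GADD45A at 6 h and 12.6, 20.2 and 23.5 CPM at 24 h. All these values fall within or near the range of pGFP at the same time. The log2 fold change against pGFP was 0.02 at 6 h (95% interval −0.54 to 0.57, adjusted p = 1) and 0.18 at 24 h (−0.38 to 0.75, adjusted p = 1). At both times 1 gene in all, or 0.00479% of those tested, passed in this comparison. As in pGFP, replicate 1 at 24 h was the lowest of its group.

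**Figure D1:**
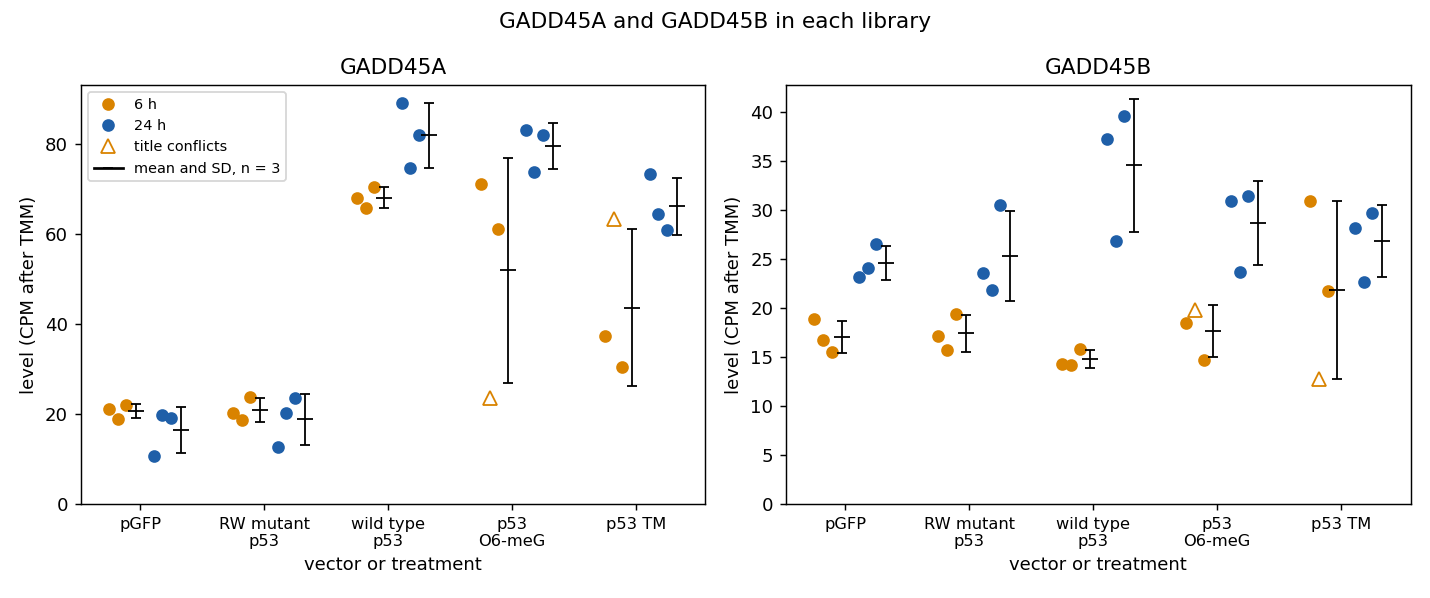
Levels of GADD45A (left) and GADD45B (right) in CPM after TMM scaling, by vector or treatment, at 6 h (orange) and 24 h (blue), with each point 1 library, open triangles the 2 libraries with conflicting titles, and bars the mean ± SD of 3 replicates. GADD45A separates wild type p53 (65.7 to 89.2 CPM) from pGFP and RW mutant p53 (10.6 to 23.8 CPM). For GADD45B every 24 h library lies above every 6 h library of its group, except in p53 TM.

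With the p53 O6-meG vector and active AGT, GADD45A was at 71.1, 23.6 (conflicting library) and 61.2 CPM at 6 h. The first and the last of these lie at the level of wild type p53, and the conflicting library at that of pGFP. As labelled, the gene rose 2.51-fold over pGFP (log2 1.33 ± 0.28, adjusted p = 0.0351), where 0.35% of all genes passed. The log2 value was 1.66 with grouping by the first part of the titles (adjusted p = 2.4e-07) and 1.68 with both libraries left out (adjusted p = 1.22e-06). As labelled the call was lost without any 1 of the pGFP replicates at 6 h (log2 1.34, 1.27 and 1.38) or without replicate 1 or 3 of p53 O6-meG (1.03 and 1.20), and in a fit of only these groups (1.29, adjusted p = 0.277). Against wild type p53 the difference was log2 −0.39 as labelled (adjusted p = 0.568, with 0.00479% of genes passing), −0.06 by the first part of the titles and −0.04 with both left out.

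At 24 h p53 O6-meG gave 83.1, 73.8 and 82.0 CPM of GADD45A, which overlaps the 3 wild type libraries. It rose 4.81-fold over pGFP (log2 2.27 ± 0.29, adjusted p = 1.87e-06, with 29.3% of all genes passing). Against wild type p53 the log2 difference was −0.04, with an interval from −0.58 to 0.50 (adjusted p = 1). In that comparison 0% of all genes passed by edgeR, with 882 genes at an unadjusted p under 0.05 and 1 gene called by DESeq2. With the replicate number as a block in the 24 h libraries alone, 74 genes (0.368%) passed.

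In p53 TM at 6 h, GADD45A was at 37.3, 63.3 (conflicting library) and 30.4 CPM. The replicates with undisputed titles lie above every pGFP library (19 to 22.0 CPM) and below every wild type library (65.7 to 70.4 CPM), whereas the conflicting library lies next to wild type p53. Over pGFP the log2 difference was 1.08 ± 0.28 as labelled (adjusted p = 0.232, with 0.0814% of genes passing), 0.56 by the first part of the titles (adjusted p = 0.306) and 0.71 with both left out (adjusted p = 0.239). It passed as labelled when replicate 2 of p53 O6-meG alone was left out (1.08, adjusted p = 0.0296).

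Against wild type p53 at 6 h, GADD45A in p53 TM differed by log2 −0.64 ± 0.28 as labelled, with adjusted p = 0.242 and 0.0766% of all genes passing. By the first part of the titles it fell by 1.16 on the log2 scale (adjusted p = 2.82e-05, with 14.6% of genes passing), and with both libraries left out by 1.01 (adjusted p = 0.00104, with 10.9% of genes passing). Leaving out only replicate 2 of p53 TM gave −1.01 (adjusted p = 0.0244). Against p53 O6-meG, which differs from p53 TM by the inhibitor alone, the log2 difference was −0.25 as labelled (adjusted p = 1). In this comparison 0% of genes passed by edgeR and by DESeq2, with 395 at an unadjusted p under 0.05. By the first part of the titles GADD45A was lower by log2 1.10 (adjusted p = 1.14e-04), where 8.3% of genes passed, and with both left out by 0.97 (adjusted p = 0.00745), where 4.1% passed.

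At 24 h p53 TM gave 73.3, 64.4 and 60.9 CPM of GADD45A. Each value was below that of wild type p53 and of p53 O6-meG with the same replicate number, although the ranges of p53 TM and wild type p53 lie less than 2 CPM apart. The gene rose 4.0-fold over pGFP (log2 2.00 ± 0.29, adjusted p = 0.000129, with 9.2% of genes passing). The log2 difference was −0.31 ± 0.28 from wild type p53 (interval −0.85 to 0.23, adjusted p = 0.492, with 18.5% of genes passing) and −0.27 ± 0.28 from p53 O6-meG (adjusted p = 0.632, with 6.5% passing). Neither passed with the replicate number as a block in the 24 h libraries alone, which gave −0.32 (adjusted p = 0.139) and −0.27 (adjusted p = 0.25). From 6 h to 24 h GADD45A in p53 TM changed by log2 0.60 as labelled (adjusted p = 0.0788, with 45.8% of genes passing), and it rose by 1.12 by the first part of the titles (adjusted p = 1.11e-05) and by 0.96 with both libraries left out (adjusted p = 0.000399).

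In order of the mean at 24 h, GADD45A was at 16.5 ± 5.14 CPM (SD) in pGFP, 18.8 ± 5.57 in RW mutant p53, 66.2 ± 6.36 in p53 TM, 79.6 ± 5.07 in p53 O6-meG and 82.0 ± 7.22 in wild type p53. The gap between RW mutant p53 and p53 TM is the only one between neighbours that exceeds the spread of the replicates several times over. As a part of the difference between the wild type and pGFP means, the 3 libraries of p53 O6-meG at 24 h held 101.6, 87.5 and 100%, and those of p53 TM 86.7, 73.2 and 67.8%. At 6 h the same share in p53 O6-meG was 106.4, 6.2 (conflicting library) and 85.4%, with a mean of 93.9% by the first part of the titles and 95.9% with both left out. In p53 TM at 6 h it was 35.1, 89.9 (conflicting library) and 20.5%, with means of 20.6% and 27.8% in the same order. These shares are descriptions, and no test was run on them.

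**Figure D2:**
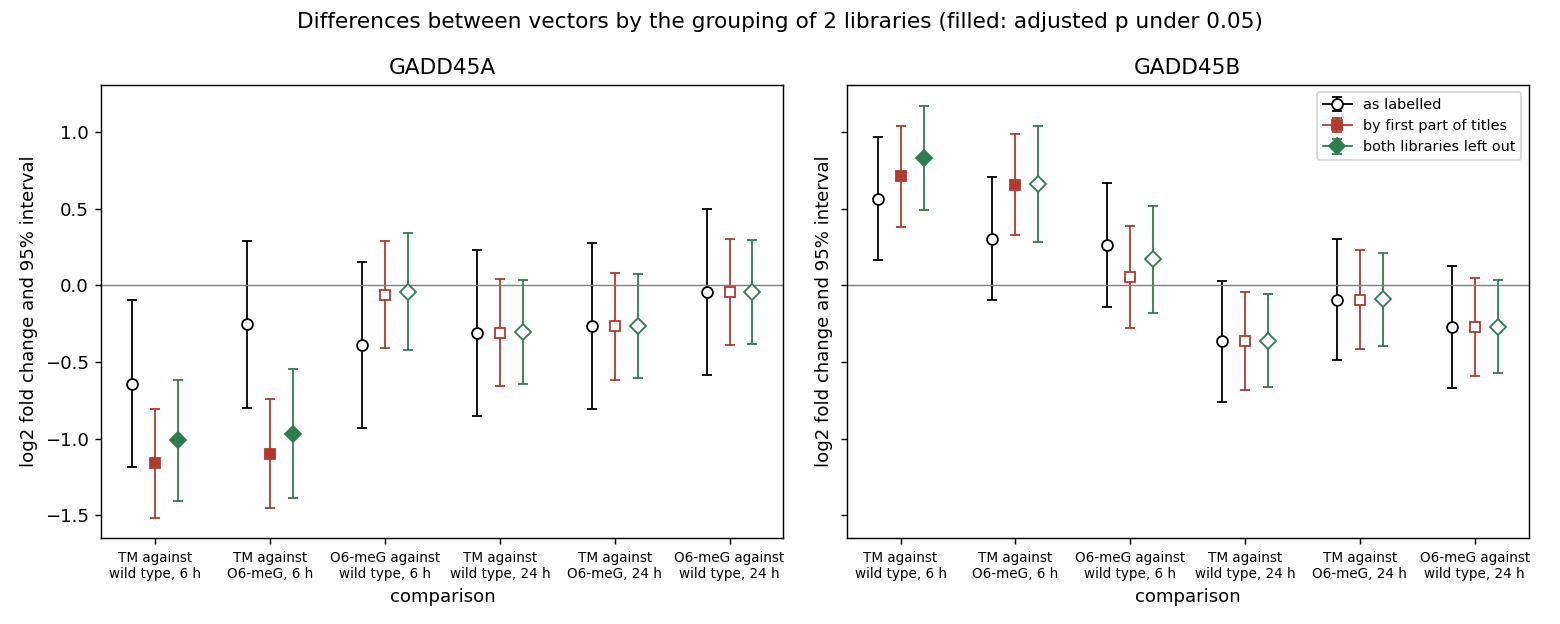
Log2 fold changes of GADD45A (left) and GADD45B (right) with 95% intervals for 6 comparisons among the p53 vectors, with the 2 conflicting libraries as labelled (circles), by the first part of their titles (squares) or left out (diamonds), filled where the adjusted p is under 0.05. At 6 h p53 TM lies below wild type p53 for GADD45A (−0.64 to −1.16) and above it for GADD45B (0.56 to 0.83), filled only for the squares and diamonds.

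GADD45B rose from 6 h to 24 h in pGFP and with wild type p53. In pGFP it was at 18.8, 16.7 and 15.6 CPM at 6 h and at 23.1, 24.1 and 26.5 CPM at 24 h, so that every 24 h library was higher than every 6 h library. It rose 1.44-fold (log2 0.53 ± 0.20, adjusted p = 0.0403) in a comparison in which 40.1% of all genes passed. This call was lost when any 1 of 5 of the 6 libraries was left out, with log2 values of 0.46 to 0.57. With wild type p53 the values were 14.3, 14.1 and 15.8 CPM at 6 h and 37.2, 26.9 and 39.6 CPM at 24 h. These ranges are far apart, and GADD45B rose 2.34-fold (log2 1.23 ± 0.21, adjusted p = 2.73e-05), where 45% of all genes passed. In RW mutant p53 and in p53 O6-meG every 24 h library was also above every 6 h library, a change that was not tested. In p53 TM the change was log2 0.30 as labelled (adjusted p = 0.237), where 45.8% of all genes passed. It was 0.02 without the conflicting library of p53 TM at 6 h. Without replicate 1 of p53 TM at 6 h it was 0.63 (adjusted p = 0.0136).

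Against pGFP at the same time, wild type p53 gave a log2 difference in GADD45B of −0.21 ± 0.21 at 6 h (adjusted p = 0.718), where 1.11% of all genes were lower. At 24 h it was 0.49 ± 0.20, or 1.41-fold, with adjusted p = 0.0616. The 24 h libraries were taken as paired by their replicate number, from correlated residuals in these data and not from the labels. With that block GADD45B was higher by 0.47 in all 30 libraries (adjusted p = 0.0362). Block fits over both times apply the same replicate shift at 6 h, where pairing was not shown. In the 24 h libraries alone with the block GADD45B was higher by 0.45 (adjusted p = 1.83e-04), where 51.3% of genes passed. It passed as well without replicate 2 of wild type p53 (0.65, adjusted p = 0.0238) or without the conflicting library of p53 TM at 6 h (0.49, adjusted p = 0.0162). Wild type p53 was above pGFP in 3 of 3 pairs, and replicate 2, at 26.9 CPM, was the only wild type library close to the range of pGFP. The effect of wild type p53 changed from 6 h to 24 h by log2 0.70 ± 0.29 (adjusted p = 0.185), and by 0.70 in a fit of only these groups (adjusted p = 0.025) and 0.68 with the conflicting libraries left out and the block (adjusted p = 0.0184).

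RW mutant p53 gave GADD45B at 17.2, 15.7 and 19.4 CPM at 6 h and at 23.6, 21.8 and 30.5 CPM at 24 h, which overlaps pGFP at both times (log2 0.03 and 0.04, adjusted p = 1 for both). In p53 O6-meG it was at 18.5, 19.8 (conflicting library) and 14.7 CPM at 6 h and at 30.9, 23.7 and 31.4 CPM at 24 h. Against pGFP the log2 differences were 0.06 at 6 h (adjusted p = 0.943) and 0.22 at 24 h (adjusted p = 0.466), and against wild type p53 0.26 at 6 h (adjusted p = 0.613) and −0.27 at 24 h (interval −0.67 to 0.12, adjusted p = 1). The sign at 6 h against pGFP turned with the conflicting libraries grouped by the first part of their titles (−0.15) or left out (−0.03). Against wild type p53 at 6 h these groupings gave 0.05 (adjusted p = 0.937) and 0.17 (adjusted p = 0.754).

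In p53 TM at 6 h GADD45B was at 30.9, 12.8 (conflicting library) and 21.8 CPM. The replicates with undisputed titles were the highest of all 15 libraries at 6 h, and the conflicting one was the lowest. Against wild type p53 the log2 difference was 0.56 ± 0.20 as labelled (adjusted p = 0.155, with 0.024% of genes higher). GADD45B rose by 0.71 by the first part of the titles (adjusted p = 0.00318) and by 0.83 with both libraries left out (adjusted p = 0.00159), and by 0.83 without replicate 2 of p53 TM alone (adjusted p = 0.00225). Against p53 O6-meG the difference was 0.30 as labelled (adjusted p = 1), 0.66 by the first part of the titles (adjusted p = 0.0114) and 0.66 with both left out (adjusted p = 0.0523). Against pGFP it did not pass in any of the 3 groupings, with log2 values of 0.36, 0.51 and 0.63 in the same order.

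At 24 h p53 TM gave 28.1, 22.7 and 29.7 CPM of GADD45B, below wild type p53 in 3 of 3 pairs and within the range of RW mutant p53. The log2 difference from wild type p53 was −0.36 ± 0.20 (adjusted p = 0.225). In the 24 h libraries alone with the replicate block it was lower by 0.37 (adjusted p = 0.00177, with 38.7% of genes passing), and by 0.36 in all libraries with the block and without the conflicting ones (adjusted p = 0.0398). In order of the mean at 24 h, GADD45B was at 24.6 ± 1.75 CPM (SD) in pGFP, 25.3 ± 4.58 in RW mutant p53, 26.8 ± 3.68 in p53 TM, 28.7 ± 4.32 in p53 O6-meG and 34.5 ± 6.76 in wild type p53, and no pair of neighbours lies apart by more than the larger of their SDs.

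The difference between p53 TM and wild type p53 in GADD45B thus had opposite signs at 6 h and 24 h. The change between the times was log2 −0.93 ± 0.29 as labelled, which did not pass (adjusted p = 0.215, with 0.0671% of genes passing). It was −1.07 by the first part of the titles (adjusted p = 0.00835), where 2.46% of genes passed, and −1.19 with both left out (adjusted p = 0.00499), where 1.45% passed. For GADD45A the same change was 0.33 as labelled, 0.85 by the first part of the titles and 0.70 with both left out, with adjusted p of 0.869, 0.0751 and 0.254.

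Per kilobase of exon, pGFP held the expressed members at levels of the same order. At 6 h the means were 10.7 CPM per kilobase for GADD45A and 7.96 for GADD45B, and at 24 h 8.57 and 11.5. With wild type p53 at 6 h GADD45A held 35.4 and GADD45B 6.89 CPM per kilobase, and at 24 h GADD45A held 42.6 and GADD45B 16.2. The log2 of the ratio of GADD45A to GADD45B per kilobase, which does not depend on library scaling, was 0.31, 0.34 and 0.65 in pGFP at 6 h and 2.40, 2.37 and 2.31 in wild type p53. The difference of 1.93 was beyond the spread of the replicates, and its exact permutation p of 0.1 (two-sided) is the smallest that 3 against 3 libraries allow. At 24 h the ratio was −0.97, −0.13 and −0.32 in pGFP and 1.41, 1.63 and 1.20 in wild type p53, a difference of 1.89 (exact permutation p = 0.1). In p53 TM at 6 h the ratio was 0.42 and 0.63 in the replicates with undisputed titles, which is within the range of pGFP, and 2.46 in the conflicting one. At 24 h p53 TM, at 1.53, 1.66 and 1.19, overlapped wild type p53.

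**Figure D3:**
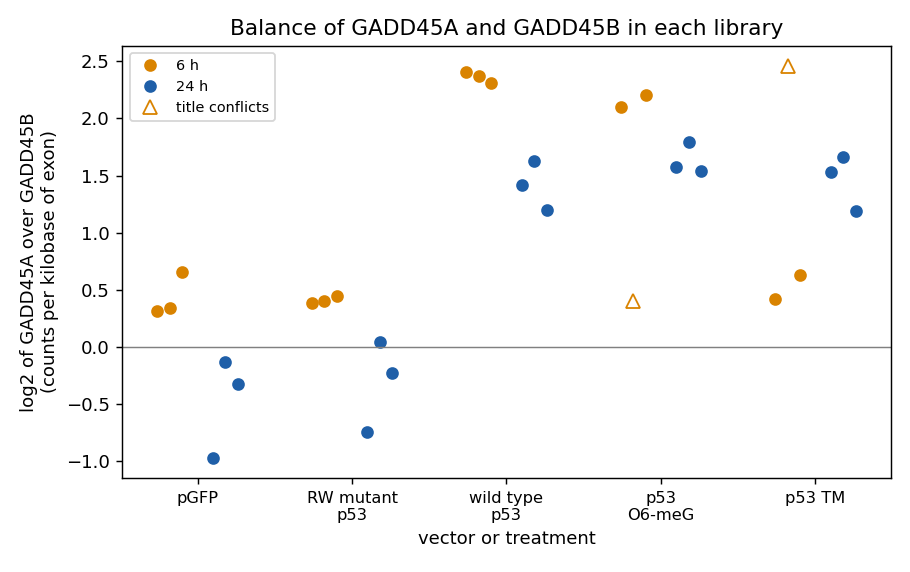
Log2 of the ratio of GADD45A to GADD45B counts per kilobase of exon in each library (points) by vector or treatment, at 6 h (orange) and 24 h (blue), with open triangles for the libraries with conflicting titles. Wild type p53 lies between 2.31 and 2.40 at 6 h and between 1.20 and 1.63 at 24 h, and pGFP between 0.31 and 0.65 and between −0.97 and −0.13.

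The other genes named for growth arrest and DNA damage were measured beside the family. DDIT3 (GADD153, the stress factor CHOP), PPP1R15A (GADD34, which restores translation after stress) and GADD45GIP1 (a protein that binds the GADD45 proteins) did not pass with wild type p53 at either time. By edgeR 0 of 3 were called, where 8.75% of all genes passed at 6 h and 34.9% at 24 h, with 1 of 3 at an unadjusted p under 0.05 at each time and 0 called by DESeq2. In the 24 h libraries alone with the replicate block 2 were higher and 1 lower, where 51.3% of all genes passed. In p53 TM at 6 h, DDIT3 was at 60.9, 17.4 (conflicting library) and 34.5 CPM, and in wild type p53 at 19.9, 16.2 and 24.0 CPM. Against wild type p53 the log2 difference was 0.91 as labelled (adjusted p = 0.0859). In this comparison as labelled DESeq2 called 2 of the 3 genes, and 2.56% of all genes. DDIT3 rose by 0.96 by the first part of the titles (adjusted p = 0.00393) and by 1.25 with both left out (adjusted p = 7.56e-05). PPP1R15A was at 44.9, 26.1 (conflicting library) and 38.1 CPM in p53 TM and at 26.9, 23.1 and 28.5 CPM in wild type p53, a log2 difference of 0.47 as labelled (adjusted p = 0.0864). It rose by log2 0.59 and 0.66 in the other groupings (adjusted p = 0.000693 and 0.000252), in which 14.6% and 10.9% of all genes passed. DDIT3 and PPP1R15A thus moved in the same direction as GADD45B, and opposite to GADD45A, in this comparison under both of these groupings.

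Of 12 stress kinases downstream of the family, 3 rose with wild type p53 at 6 h, where 7.64% of all genes rose, and 6 rose and 3 fell at 24 h, where 20.3% of all genes rose and 14.6% fell. The median log2 fold change at 24 h was 0.31, beside 0.01 over all genes. MAPK14 (p38α, which GADD45 proteins activate through MAP3K4) rose from 80.6, 89.7 and 87.8 CPM in pGFP to 147, 146 and 127 CPM in wild type p53 at 24 h. This is a log2 fold change of 0.70 ± 0.08 (adjusted p = 1.65e-07). MAPK11 (p38β) rose by log2 1.57 (adjusted p = 1.12e-06). MAPK8 (JNK1) fell by 0.50 (adjusted p = 8.49e-06) and MAP2K7, a JNK kinase that GADD45B binds, fell by 0.23 (adjusted p = 0.0319). MAP3K4 itself was at a log2 value of 0.00 at 24 h (adjusted p = 0.977). In p53 TM against wild type p53 at 24 h, 1 of the 12 was higher and 3 were lower, beside 8.46% and 10% of all genes, and 2 and 5 in the 24 h libraries alone with the block, where 38.7% of all genes passed. MAPK14, at 110, 108 and 97.9 CPM in p53 TM, fell by log2 0.41 (adjusted p = 0.000678), and MAPK8 rose by 0.37 (adjusted p = 0.00113).

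Of 9 cell cycle partners, 3 rose at 6 h with wild type p53, beside 7.64% of all genes, and at 24 h 3 rose and 5 fell, beside 20.3% and 14.6% of all genes. The median log2 fold change at 24 h was −0.36. CDK1, the kinase that GADD45 proteins inhibit, fell from 139, 137 and 114 CPM in pGFP to 43.3, 61.8 and 50.8 CPM (log2 −1.32 ± 0.16, adjusted p = 4.3e-07), and CCNB1, its cyclin, by log2 0.36 (adjusted p = 0.04). CDKN1A rose by log2 3.68 and PCNA, the replication clamp, by 0.78 (adjusted p = 8.71e-07 and 3.61e-05). WEE1, which inhibits CDK1, rose by log2 1.14 at 6 h and by 1.00 at 24 h (adjusted p = 0.000544 and 0.000142). In p53 TM at 24 h CDK1, at 98.7, 105 and 84.1 CPM, lay between wild type p53 and pGFP with no overlap, and was higher than in wild type p53 by log2 0.88 (adjusted p = 0.000418). Here 2 of 9 were higher and 1 was lower than in wild type p53, beside 8.46% and 10% of all genes. With the block in the 24 h libraries alone these counts were 2 and 3, where 38.7% of all genes passed.

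Of 14 genes of DNA demethylation and repair, 1 was lower at 6 h with wild type p53, beside 1.11% of all genes, and at 24 h 1 was higher and 4 were lower, beside 20.3% and 14.6%. With the block in the 24 h libraries alone 3 were higher and 5 lower, where 51.3% of all genes passed. TDG, the glycosylase that works with GADD45A in demethylation, rose by log2 0.73 at 24 h (adjusted p = 3.27e-06). MBD4, another thymine glycosylase, fell by 0.32 at 6 h and 0.66 at 24 h (adjusted p = 0.0159 and 1.76e-06). ERCC5 (XPG), a nuclease recruited in GADD45A-mediated demethylation, was at log2 0.13 at 24 h (adjusted p = 0.541). Its level was low, at 2.4, 2.2 and 2.4 CPM in pGFP and 2.6, 2.6 and 2.5 CPM in wild type p53. In p53 TM against wild type p53 at 24 h, TDG fell by 0.32 and MBD4 rose by 0.45 (adjusted p = 0.0282 and 0.00083), and in all 2 of 14 were higher and 1 was lower, beside 8.46% and 10% of all genes. With the block these counts were 4 and 3, where 38.7% passed.

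Of 19 factors known to regulate GADD45 genes, 18 were tested. With wild type p53, 2 were higher at 6 h, beside 7.64% of all genes, and 4 were higher and 2 lower at 24 h, beside 20.3% and 14.6%. NFKB1 (the p50 subunit of NF-κB) rose by log2 0.92 and STAT3 by 1.24 at 24 h (adjusted p = 1.39e-07 and 1.42e-06). ATF4, FOXO3, MYC and EGR1 were at log2 0.04, −0.25, 0.16 and 0.16 and did not pass. Of these only FOXO3 had groups without overlap at 24 h. It was at 38.9, 36.4 and 35.7 CPM in pGFP and at 30.3, 32.7 and 30.5 CPM in wild type p53. In p53 TM against wild type p53 at 24 h, 2 of the 18 were higher and 3 lower, beside 8.46% and 10% of all genes, and NFKB1 fell by log2 0.64 (adjusted p = 0.000122). With the block in the 24 h libraries alone 6 were higher and 6 lower, where 38.7% of all genes passed. At 6 h as labelled, 0 of the 56 genes on these lists passed by edgeR between p53 TM and wild type p53 (0.024% of all genes were higher and 0.0527% lower), with 15 at an unadjusted p under 0.05 and 6 called by DESeq2. By the first part of the titles 8 list genes rose and 9 fell, where 14.6% of all genes passed, and with both libraries left out 8 rose and 6 fell, where 10.9% passed. Of the upstream factors, the 3 that rose by the first part of the titles were ATF4, EGR1 and FOXO3 and the 3 that fell were NFKB1, SMAD3 and STAT3. As labelled, by titles and with both left out, ATF4 was at log2 0.40, 0.50 and 0.51 (adjusted p = 0.0992, 0.000845 and 0.00477). EGR1 was at 0.58, 0.72 and 0.90 (adjusted p = 0.281, 0.0182 and 0.00766) and FOXO3 at 0.25, 0.34 and 0.39 (adjusted p = 0.191, 0.00396 and 0.00238). NFKB1 was at −0.29, −0.43 and −0.43 (adjusted p = 0.131, 7.1e-05 and 0.000847) and STAT3 at −0.52, −0.79 and −0.81 (adjusted p = 0.0988, 1.36e-06 and 2.48e-05). SMAD3 was at −0.37, −0.48 and −0.45 (adjusted p = 0.322, 0.0471 and 0.162) and did not pass with both left out.

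**Figure D4:**
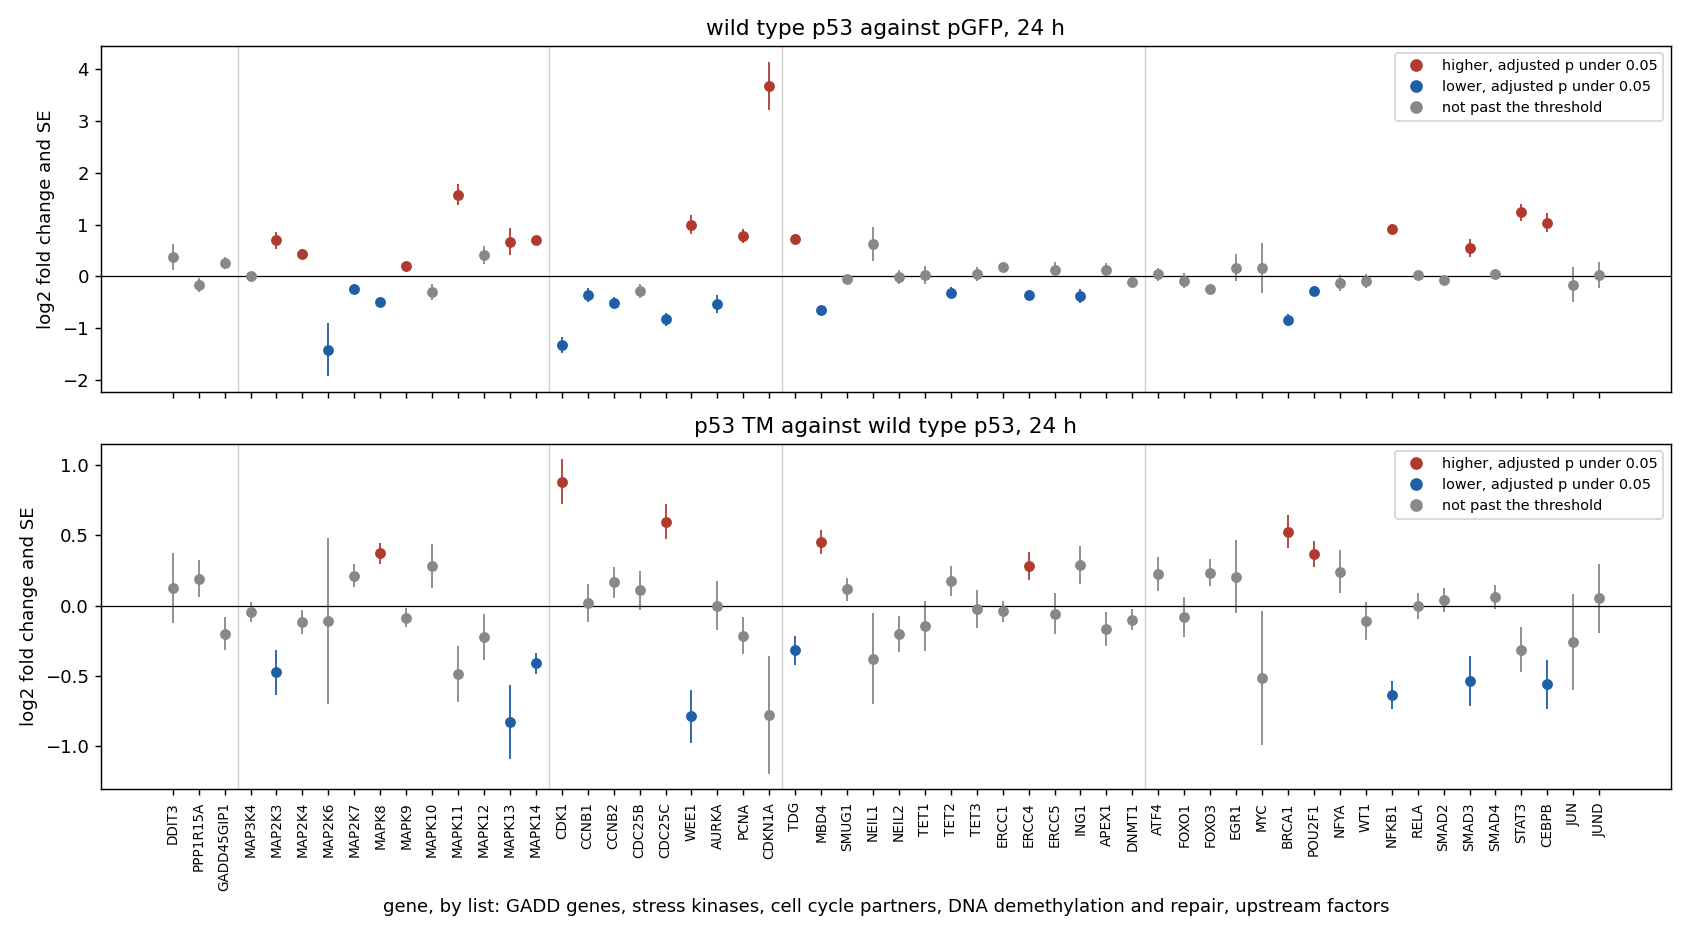
Log2 fold changes ± SE of the 56 tested genes of the partner lists at 24 h, for wild type p53 against pGFP (top) and p53 TM against wild type p53 (bottom), on axes of different range, with red for higher and blue for lower at an adjusted p under 0.05 and grey lines between lists. CDK1 is at −1.32 above and 0.88 below, and MAPK14 at 0.70 above and −0.41 below.

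Over all 30 libraries, the 5 genes whose log2 CPM was most like that of GADD45A, of 14162 genes with a mean of at least 1 CPM, were TNFRSF10B (Pearson's r 0.979), TIGAR (0.969), LIF (0.967), EPHA2 (0.964) and MDM2 (0.964). Their r was 0.958 to 0.984 within 6 h and 0.960 to 0.980 within 24 h, at ranks of 3 to 126 among these genes, and by Spearman's rho over all libraries their ranks were 2 to 173.5. The genes most like GADD45B were DLX2 (0.888), RASSF1 (0.878), ZNF14 (0.874), ZNF394 (0.872) and OSER1 (0.869). Within 24 h these had r of 0.506 to 0.666, at ranks of 417 to 2230. GADD45A and GADD45B themselves had r of 0.194 over all libraries, −0.319 within 6 h and 0.585 within 24 h. The libraries share depth, time and vector groups, so these values are descriptions.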

How the data were processed

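Sequencing libraries were made from total RNA of sorted H1299 cells with a stranded, rRNA-depleted kit. The authors aligned single reads to hg38 with STAR 2.5.3a and counted them on GENCODE v27 genes with featureCounts of Subread 1.5.2; the deposited values used here are these raw read counts per gene, with no scaling. Whether the counting used strand is not given in the sources used here. A deposited table of normalized values was not used. The members and lists were chosen with earlier results of these data known.

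Groups followed the labels. Tests were run with edgeR 4.0.16 under R 4.3.3 (filterByExpr, TMM, quasi-likelihood test, all 30 libraries in one fit), with Benjamini-Hochberg adjustment over the 20875 genes tested. A gene passed at an adjusted p under 0.05, with no limit on fold. A standard error is the log2 fold change over the root of its F, and levels are TMM-scaled CPM, and per kilobase they were divided by the exon length in GENCODE v44, which was also used with hg38 for the sites. The log2 ratio of the members used a pseudocount of 0.5. Alternatives were DESeq2 1.42.0 size factors, its Wald test, no filter, a minimum of 10 counts in all libraries, fits of the compared groups only, a replicate block, both treatments of the conflicting libraries and each library left out; the block in 24 h libraries alone and the block without conflicting libraries were added after values had been seen.

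Named genes are the members, CDKN1A, 16 fixed partner genes, the 2 called list genes of smallest adjusted p per list and time with wild type p53, and the 5 genes most like each tested member. MAPK8 and SMAD3 are outside this rule and were chosen after their values were seen. Residuals of libraries with the same replicate number correlated above 0.1 at 24 h in 30 of 30 pairs (0.192 to 0.627), so these libraries are taken as paired. At 6 h they did so in 10 of 30 pairs, and in 10 of 23 without the conflicting libraries, which does not show pairing. No library duplicated another of its group (chi-square per degree of freedom 6.13 to 47.8). In counts simulated for wild type p53 against pGFP at 24 h with 20248 genes, edgeR recovered 178 of 200 changed genes with 9 false calls. Each changed gene differed at least 2-fold, and the replicates were drawn independently. Recovery of smaller differences, or with paired libraries, was not tested. A check of the vectors is not reported here.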

Additional observations from a re-analysis of the deposited data

How the results depend on the processing

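GADD45A with wild type p53 against pGFP stayed past the threshold at 6 h and 24 h under every alternative run. For p53 TM against wild type p53 at 6 h, GADD45A was −1.16 with grouping by the first part of the titles, −1.01 with both conflicting libraries left out and −1.02 with both left out and the replicate block, against −0.64 as labelled, and GADD45B was 0.71, 0.83 and 0.75 against 0.56. All 6 passed, and neither value passed as labelled. GADD45B with wild type p53 at 24 h, at 0.49 and not past the threshold, passed with the replicate block (0.47), grouping by the first part of the titles (0.49), both conflicting libraries left out (0.49, and 0.48 with the block), only the groups compared (0.48) and the 24 h libraries alone with the block (0.45). For p53 TM against wild type p53 at 24 h GADD45B passed in the last of these (−0.37) and with the conflicting libraries left out and the block (−0.36). The block changed no other call of a member against pGFP or wild type p53 at 24 h. The cause of these changes was not tested.

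Leaving out each library in turn gave log2 ranges of −1.01 to −0.44 for GADD45A and 0.23 to 0.83 for GADD45B in p53 TM against wild type p53 at 6 h, passing only without replicate 2 of p53 TM. For GADD45B with wild type p53 at 24 h the range was 0.38 to 0.65, passing without replicate 2 of wild type p53 at 24 h (0.65) or without replicate 1 or 2 of p53 TM at 6 h (0.49 each, with a smaller shared spread). Values that took both signs were all short of the threshold. For GADD45A these were RW mutant p53 against pGFP at 6 h (−0.093 to 0.09) and 24 h (−0.048 to 0.41), p53 TM against p53 O6-meG at 6 h (−0.62 to 0.044) and p53 O6-meG against wild type p53 at 24 h (−0.10 to 0.020). For GADD45B they were RW mutant p53 against pGFP at 6 h (−0.054 to 0.11) and 24 h (−0.11 to 0.14), p53 O6-meG against pGFP at 6 h (−0.034 to 0.17) and p53 TM against p53 O6-meG at 6 h (−0.030 to 0.57) and 24 h (−0.21 to 0.014).

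The sign of GADD45B in p53 O6-meG against pGFP at 6 h (0.06) turned to −0.15, −0.033 and, with the block, −0.12 when the conflicting libraries were regrouped or left out. Depth limits only GADD45G, whose 8 counts allow no comparison. Of the counts of list genes called, 308 were equal to the reported count or within 1.5 times of it under the alternatives, and 72 were not. Counts of 0 that stayed at 0 are among the 308, so this tally says little of the lists with no gene called.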
